A study of Homo sapiens with 6 samples.

Results

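The genes described here encode the cytosolic and mitochondrial chaperones, 52 genes chosen by symbol from their families. They comprise the heat shock factors, the HSP90, HSP70, HSP40 and small HSP families, the CCT chaperonin, the BAG proteins, the co-chaperones of HSP90, the chaperones and proteases of mitochondria, and prefoldin. All 52 were found among the 56584 gene symbols in the expression tables, and 40 could be tested among 10714 genes in all. Messenger RNA was measured in cultured human cells of 2 lymphoma B cell lines, with 3 libraries from each. LY19Y646F carries EZH2-Y646F under a CMV promoter, with expression labelled as constitutive, and LY19WT is labelled as EZH2 wild type. EZH2 is the histone methyltransferase of Polycomb repressive complex 2. All cells were untreated and between passages 10 and 15, and whether LY19Y646F is a clone or a pool was not given in the sources used here. The comparison asked which chaperone genes differed in level between LY19Y646F and LY19WT.

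Chaperones bind unfolded or partly folded proteins, and many, though not all, release them through cycles of ATP binding and hydrolysis. HSP40 proteins deliver clients to HSP70, nucleotide exchange factors such as BAG and HSP110 proteins reset HSP70, and HSP90 with its co-chaperones matures kinases, steroid receptors and other signalling proteins. CCT and the mitochondrial HSP60 are closed chambers, and heat shock factor 1 (HSF1) activates many of these genes by binding arrays of the unit GAA in alternating orientation, the heat shock element.

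EZH2 measured 70.2 to 93.5 FPKM in LY19Y646F and 60.6 to 76.5 FPKM in LY19WT, where FPKM counts mapped fragments scaled to transcript length and to the library total. The tables do not separate the introduced from the native transcript. Among B cell markers, CD79B measured 277 to 337 FPKM in LY19Y646F and 140.1 to 177 FPKM in LY19WT, and PAX5 measured 22.3 to 35.2 FPKM in LY19Y646F and 85.7 to 118 FPKM in LY19WT. CD22 and CD79A were also present in every library, but MS4A1 lay at 83.1 to 118 FPKM in LY19Y646F and at 0.0688 to 0.140 FPKM in LY19WT, and CD37 at 96.9 to 130.2 FPKM in LY19Y646F and 0 to 5.22 FPKM in LY19WT. Of 12 markers of other cell types, 11 summed to 1.58 to 1.96 FPKM in LY19Y646F and 0.136 to 0.403 FPKM in LY19WT, with HBB and PECAM1 at 0 throughout, and CD68 shared its row with EIF4A1. The part of these marker differences in the chaperone results was not tested, and in bulk RNA fewer cells of a kind and less RNA per cell cannot be told apart. The 10 highest rows held 27.5% of the summed FPKM in LY19WT replicate 3 and 5.71% to 9.38% in the others. Across tested genes, Pearson's r between libraries was 0.866 to 0.927 within a line and 0.73 to 0.770 between the lines, as a description, since genes are not independent.

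Most chaperone genes had a positive difference between LY19Y646F and LY19WT, and more were called higher than lower. Of the 40 tested, 16 were called (limma on log2(FPKM + 1), Benjamini-Hochberg adjusted p under 0.05), 14 of them higher and 2 lower. The background over the whole table was 33.3% called, with 16.7% higher and 16.5% lower. The 14 are 35% of the tested chaperones and the 2 are 5%. A change was positive for 34 of the 40, with a median of 0.46 on the log2(FPKM + 1) scale, against 48.3% positive and a median of -0.03 over all tested genes. The 3 libraries of LY19Y646F all lay above those of LY19WT for 21 of the 40 and all below for 3, where 48.6% of all tested genes did not overlap, 24.4% above and 24.2% below. Of the 16 called genes, 5 differed by at least 2-fold on the log2 scale: HSPD1, DNAJB1, CCT5, HSPA4L and BAG3. The share of all tested genes at this size was not computed, so the count has no background. HSPD1 and DNAJB1 each overlap a row listed at 0 in LY19Y646F, as described below. The count called higher was 8 (20%, against 12.4% of all tested genes in the same fit) without LY19WT replicate 2. It was 9 (22.5%) without LY19Y646F replicate 2 or replicate 3, against 12.5% and 13.4% of all tested genes. Under quantile scaling it was also 8 (20%), close to the 17.5% of all tested genes there. HSPA4L, one of the 2 called lower, entered the test only through its LY19WT values, so its call is no support for a difference.

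**Figure D1:**
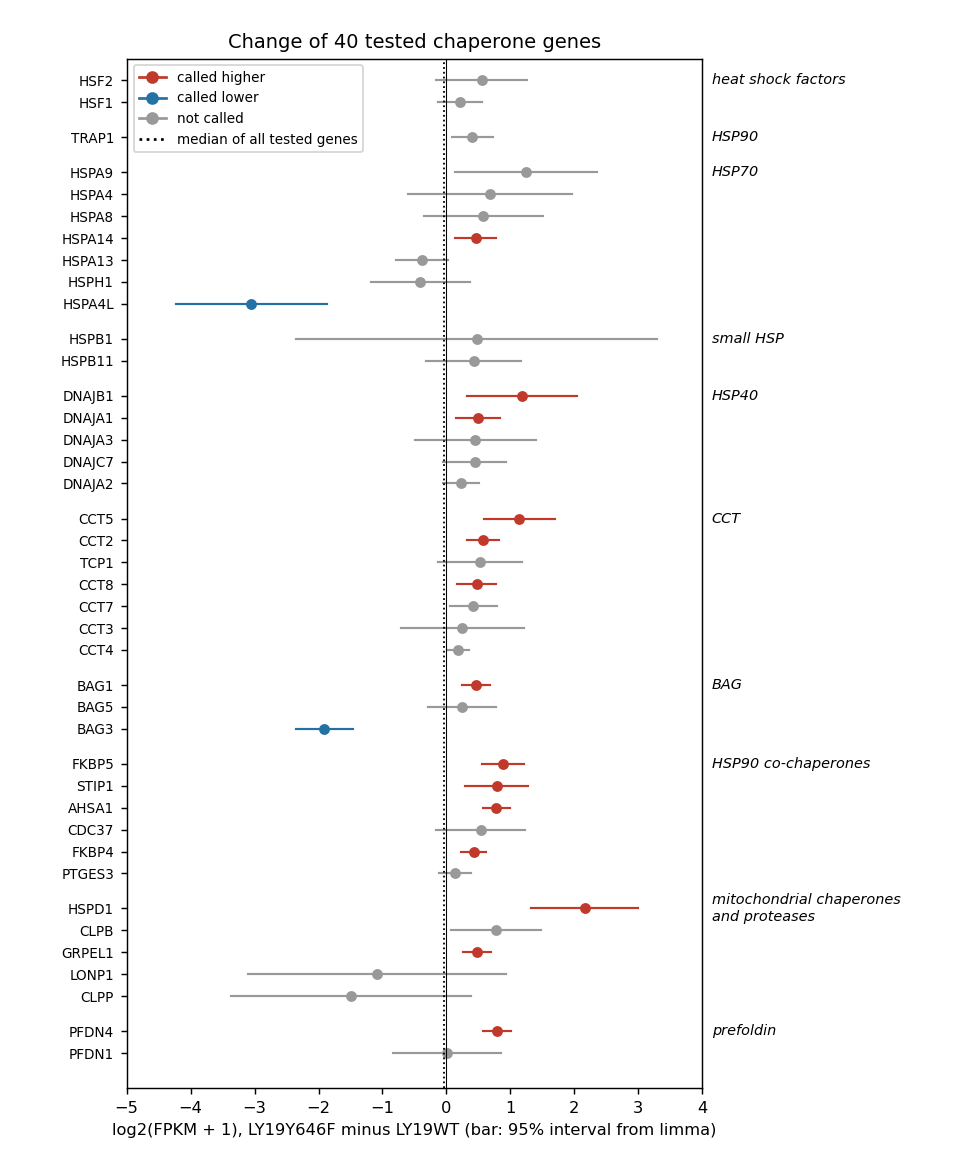
Change of each tested chaperone gene on the log2(FPKM + 1) scale, LY19Y646F minus LY19WT, grouped by class, with the 95% interval from limma (n = 3 libraries each). Points right of the dotted line, the median of all tested genes at -0.03, are above it; 14 are called higher, and HSPA4L (kept by the filter through LY19WT alone) and BAG3 are called lower.

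Rows that named a chaperone gene held 1.77%, 2.17% and 2.73% of the summed FPKM in the LY19Y646F libraries, against 1.49%, 1.504% and 1.31% in the LY19WT libraries. The highest share was that of LY19Y646F replicate 3, where HSPA8 and HSPD1 were 2 of the 10 highest rows. With the 10 highest rows of each library left out, the shares were 1.92%, 2.31% and 1.999% in LY19Y646F and 1.58%, 1.63% and 1.80% in LY19WT, and the lines still did not overlap.

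Heat shock elements are shown because several of the genes described next belong to the classical targets of HSF1. RefSeq promoters of build GRCh38.p14, from 250 bases before to 50 after a start site, were held for 43 of the 52 genes. They were searched for 3 alternating units, GAANNTTCNNGAA or its reverse complement TTCNNGAANNTTC, which can overlap each other. The element was found for 6 of the 43 genes (13.95%), and for 166 of 27305 genes in the whole table (0.608%). Of the 6, HSPD1 and DNAJA1 were called higher, HSPA8 was not called, and HSP90AA1, HSP90AB1 and DNAJB6 could not be tested. The regions were chr2:197499791-197500090 (minus strand) for HSPD1, chr14:102086995-102087294 (minus strand) for HSP90AA1, chr6:44247693-44247992 (plus strand) for HSP90AB1, chr11:123062087-123062386 (minus strand) for HSPA8, chr9:33025023-33025322 (plus strand) for DNAJA1 and chr7:157336754-157337053 (plus strand) for DNAJB6. Capitals mark the bases of the element in each sequence, written 5′ to 3′:
HSPD1: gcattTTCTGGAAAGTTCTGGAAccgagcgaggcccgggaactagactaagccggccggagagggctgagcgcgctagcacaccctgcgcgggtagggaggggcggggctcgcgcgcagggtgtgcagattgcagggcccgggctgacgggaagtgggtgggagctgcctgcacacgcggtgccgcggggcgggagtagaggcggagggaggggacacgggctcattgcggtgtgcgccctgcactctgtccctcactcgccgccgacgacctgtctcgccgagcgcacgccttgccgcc
HSP90AA1: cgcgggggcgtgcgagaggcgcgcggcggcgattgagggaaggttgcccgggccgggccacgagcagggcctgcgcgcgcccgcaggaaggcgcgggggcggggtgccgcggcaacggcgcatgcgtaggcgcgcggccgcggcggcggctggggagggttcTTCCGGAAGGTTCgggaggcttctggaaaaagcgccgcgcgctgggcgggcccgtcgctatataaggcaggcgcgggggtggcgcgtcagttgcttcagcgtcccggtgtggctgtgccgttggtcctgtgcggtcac
HSP90AB1: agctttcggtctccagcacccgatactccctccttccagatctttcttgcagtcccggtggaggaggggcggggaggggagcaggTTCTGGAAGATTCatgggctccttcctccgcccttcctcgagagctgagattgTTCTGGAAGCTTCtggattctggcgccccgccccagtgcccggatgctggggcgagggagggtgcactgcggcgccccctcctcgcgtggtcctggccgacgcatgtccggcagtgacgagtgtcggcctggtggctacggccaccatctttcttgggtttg
HSPA8: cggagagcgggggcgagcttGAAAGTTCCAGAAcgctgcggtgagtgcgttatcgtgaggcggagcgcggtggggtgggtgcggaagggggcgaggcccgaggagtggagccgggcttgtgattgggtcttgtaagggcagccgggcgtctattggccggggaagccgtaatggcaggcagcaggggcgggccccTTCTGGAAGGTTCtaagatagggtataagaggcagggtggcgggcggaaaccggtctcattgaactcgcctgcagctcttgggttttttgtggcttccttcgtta
DNAJA1: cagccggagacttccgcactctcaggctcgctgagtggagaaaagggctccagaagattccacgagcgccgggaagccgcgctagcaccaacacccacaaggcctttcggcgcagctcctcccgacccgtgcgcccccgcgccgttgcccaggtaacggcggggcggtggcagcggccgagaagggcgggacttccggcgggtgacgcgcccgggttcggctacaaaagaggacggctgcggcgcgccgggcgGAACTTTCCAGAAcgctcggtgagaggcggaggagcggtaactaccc
DNAJB6: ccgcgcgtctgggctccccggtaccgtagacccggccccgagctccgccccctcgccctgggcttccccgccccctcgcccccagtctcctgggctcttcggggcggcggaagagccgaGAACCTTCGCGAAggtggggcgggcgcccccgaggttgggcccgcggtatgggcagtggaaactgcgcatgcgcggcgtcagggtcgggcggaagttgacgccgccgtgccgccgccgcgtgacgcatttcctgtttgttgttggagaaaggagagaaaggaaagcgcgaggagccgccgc
In HSPD1 overlapping elements ran from -245 to -228 relative to the start site, and HSP90AB1 and HSPA8 held 2 separate elements each. Of the 16 called genes, only HSPD1 and DNAJA1 had this element in the windows held, which did not cover every chaperone. A shorter form of 2 units, GAANNTTC or TTCNNGAA, was found for 18 of the 43 genes (41.9%) and for 16.2% of genes in the whole table. A match describes the letters of a window and was not tested as a binding site.

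The heat shock factors themselves were not called with equal library weights. HSF1, the factor that drives the heat shock response, measured 48.3, 41.2 and 37.5 FPKM in LY19Y646F (mean 42.3 ± 5.47, SD) and 32.5, 37.8 and 39.0 FPKM in LY19WT (36.4 ± 3.48), and the libraries of the lines overlapped. Its change was 0.21 on the log2(FPKM + 1) scale (95% interval -0.14 to 0.55, limma adjusted p = 0.31), 0.13 without LY19WT replicate 1 and 0.11 without LY19Y646F replicate 1. HSF2, its paralog, measured 17.5, 20.96 and 33.0 FPKM in LY19Y646F (mean 23.8 ± 8.13, SD) and 19.6, 13.4 and 13.8 FPKM in LY19WT (15.6 ± 3.50), also overlapping. Its change was 0.55 (interval -0.16 to 1.26, limma adjusted p = 0.20), and it was 0.30 without LY19Y646F replicate 3. With library weights, where 53.9% of all tested genes were called, it was 0.66 and called (limma adjusted p = 0.035). Rows without a gene name overlap HSF2 and held 0, 59.7 and 6.37 FPKM in LY19Y646F and 39.6, 190 and 49.8 FPKM in LY19WT. The part of these rows in the change of HSF2 was not tested.

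The largest rise among the tested chaperones was that of the mitochondrial chaperonin. HSPD1, which encodes HSP60 (hg19 chromosome 2, 198351305 to 198381461), measured 1614, 1933 and 3785 FPKM in LY19Y646F and 477, 499 and 543 FPKM in LY19WT. All LY19Y646F libraries lay above all LY19WT libraries, with replicate 3 far above the other two. HSPD1 averaged 2444 ± 1172 FPKM in LY19Y646F and 506 ± 33.4 FPKM in LY19WT (SD, n = 3 each). The change was 2.17 on the log2(FPKM + 1) scale, and limma gave it an SE of 0.33 with adjusted p = 0.0056. Without LY19Y646F replicate 3 the change was 1.80 (limma adjusted p = 0.0017).

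HSPE1 encodes HSP10, the lid of the HSP60 chamber, and the genes for both are transcribed in opposite directions from a shared promoter region. The row that names HSPE1 also names MOB4 and their readthrough transcript and spans 198364718 to 198418423, so it overlaps the HSPD1 row. It was listed at 0 in all 3 LY19Y646F libraries and held 891, 1050 and 1116 FPKM in LY19WT. Rows naming either gene summed to 1614, 1933 and 3785 FPKM in LY19Y646F and to 1369, 1550 and 1659 FPKM in LY19WT, and these sums overlapped between the lines. The rise of HSPD1 therefore stood beside an overlapping row listed at 0 in the same libraries, and how fragments were divided between the rows was not tested.

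**Figure D2:**
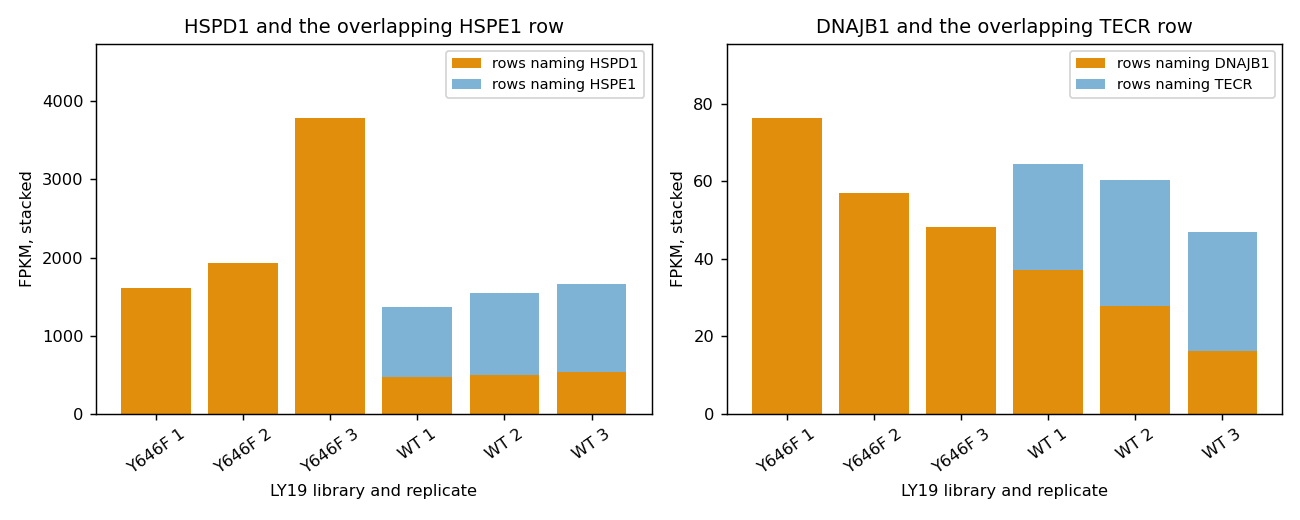
FPKM of the rows naming HSPD1 and HSPE1 (left) and DNAJB1 and TECR (right), stacked for each library of LY19Y646F (Y646F) and LY19WT (WT). HSPE1 and TECR are at 0 in every LY19Y646F library, and the stacked heights overlap between the lines in both panels.

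Among the other mitochondrial genes, GRPEL1 (hg19 chr4:7060633-7069924), the nucleotide exchange factor of mitochondrial HSP70, was called higher. It measured 76.0, 83.2 and 86.7 FPKM in LY19Y646F (mean 82.0 ± 5.46, SD) and 58.3, 58.2 and 58.5 FPKM in LY19WT (58.3 ± 0.167), without overlap. The change was 0.48 (SE 0.085, limma adjusted p = 0.0095). CLPB, a disaggregase of the intermembrane space, measured 20.1, 11.5 and 13.3 FPKM in LY19Y646F and 11.01, 6.83 and 6.92 FPKM in LY19WT, and was not called (change 0.78, adjusted p = 0.089). CLPB was called higher with library weights (change 0.68, limma adjusted p = 0.015) and with scaling to the same median (change 0.93, adjusted p = 0.037).

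The matrix proteases LONP1 and CLPP had negative changes that were not called. LONP1 measured 53.8, 11.3 and 9.97 FPKM in LY19Y646F and 85.3, 28.2 and 27.1 FPKM in LY19WT (change -1.09, limma adjusted p = 0.36). CLPP measured 56.6, 13.1 and 9.58 FPKM in LY19Y646F and 99.6, 44.1 and 41.3 FPKM in LY19WT (change -1.49, adjusted p = 0.19). In both genes replicate 1 was the highest library of each line, and the remaining libraries of the lines did not overlap. The row naming RPL36 and HSD11B1L, which overlaps LONP1, was also highest in replicate 1 of each line, and its part was not tested. With replicate 1 of both lines left out, an alternative chosen after seeing the data, LONP1 (change -1.30) and CLPP (change -1.84) were called lower, with limma adjusted p of 0.0056 and 0.011. With library weights, LONP1 (change -1.31, limma adjusted p = 0.035) and CLPP (change -1.75, adjusted p = 0.0096) were called lower as well. CLPP was also called without LY19Y646F replicate 1 alone (change -2.24, limma adjusted p = 0.027).

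Replicate 1 stood high in both lines for other chaperones too. By more than 0.5 on the log2(FPKM + 1) scale it exceeded the mean of replicates 2 and 3 in both lines for 7 of the 40 tested chaperones (17.5%), against 10.5% of all tested genes. The 7 were HSPB1, LONP1, CLPP, DNAJA3, CLPB, CDC37 and DNAJB1. HSPB1, the small heat shock protein HSP27, measured 58.9, 5.66 and 3.99 FPKM in LY19Y646F and 20.3, 5.07 and 4.75 FPKM in LY19WT. Replicate 1 of each line held several times the level of the others, and the change between lines was 0.47 (SE 1.12, adjusted p = 0.78) by limma, -0.04 without replicate 1 of both lines and -0.65 without LY19Y646F replicate 1. The other small HSP member, HSPB11, a component of intraflagellar transport, measured 89.7, 99.0 and 89.4 FPKM in LY19Y646F (mean 92.7 ± 5.46, SD) and 54.5, 54.4 and 109 FPKM in LY19WT (72.6 ± 31.4). Its change was 0.43 (limma adjusted p = 0.33), and without LY19WT replicate 3 it was 0.76 (adjusted p = 0.0076).

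**Figure D3:**
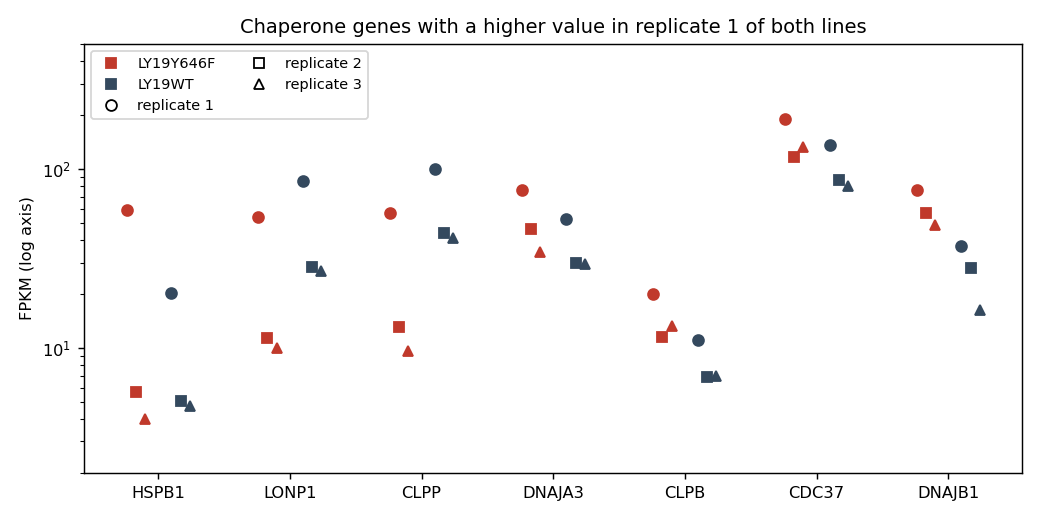
FPKM on a log axis of the 7 chaperone genes whose replicate 1 exceeded the mean of replicates 2 and 3 in both lines by more than 0.5 on the log2(FPKM + 1) scale, with LY19Y646F left of LY19WT for each gene. The circles, replicate 1, are the highest symbol of their line in every gene.

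In the HSP90 family, HSP90AA1, the stress-inducible cytosolic form, measured 1217, 1403 and 1426 FPKM in LY19Y646F and 746, 797 and 877 FPKM in LY19WT. Its LY19Y646F libraries all lay above those of LY19WT. HSP90AB1, the constitutive form, measured 1432, 1877 and 1803 FPKM in LY19Y646F and 1318, 1335 and 1460 FPKM in LY19WT, and there the lines overlapped. Neither was tested, because each shared its row with another protein-coding gene in LY19Y646F replicate 2 (MOK for HSP90AA1, SPATS1 and TMEM151B for HSP90AB1). TRAP1, the mitochondrial HSP90, measured 253, 310 and 272 FPKM in LY19Y646F (mean 278 ± 28.9, SD) and 239, 196 and 194 FPKM in LY19WT (210.0 ± 25.5). The lines did not overlap, and the change of 0.41 (SE 0.13) missed the threshold at a limma adjusted p of 0.063. Without LY19WT replicate 1 the change was 0.50 (adjusted p = 0.037).

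Of the 6 tested co-chaperones of HSP90, 4 were called higher and 0 lower, where 16.7% and 16.5% of all tested genes were. AHSA1 (chr14:77924213-77935817), the activator of the HSP90 ATPase, measured 914, 996 and 998 FPKM in LY19Y646F (mean 969.5 ± 47.7, SD) and 607, 529 and 555 FPKM in LY19WT (564 ± 39.99). FKBP5 (chr6:35541362-35696360), an immunophilin of steroid receptor complexes that is itself induced by glucocorticoids, measured 28.7, 33.8 and 35.8 FPKM in LY19Y646F (mean 32.8 ± 3.66, SD) and 15.5, 18.1 and 18.2 FPKM in LY19WT (17.3 ± 1.52). FKBP4 (chr12:2904119-2914576), the related immunophilin, measured 158, 152 and 148 FPKM in LY19Y646F (mean 153 ± 5.15, SD) and 107, 116 and 117 FPKM in LY19WT (113 ± 5.77). None of these 3 genes overlapped between the lines. By limma, the change of AHSA1 was 0.78 (SE 0.083, adjusted p = 0.0015), that of FKBP5 was 0.89 (SE 0.13, adjusted p = 0.0048) and that of FKBP4 was 0.43 (SE 0.079, adjusted p = 0.011).

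STIP1 (chr11:63952744-63972015), which links HSP70 to HSP90, measured 432, 624 and 683 FPKM in LY19Y646F (mean 579.7 ± 131, SD) and 293, 347 and 351 FPKM in LY19WT (330.3 ± 32.2), without overlap. Its change of 0.79 (SE 0.20, limma adjusted p = 0.031) lost its call without LY19WT replicate 1 (adjusted p = 0.094), 2 (0.085) or 3 (0.080) and without LY19Y646F replicate 2 (0.11) or 3 (0.088). CDC37, which brings kinases to HSP90, measured 189.5, 117 and 133 FPKM in LY19Y646F and 136, 87.2 and 80.9 FPKM in LY19WT, with overlap (change 0.54, adjusted p = 0.20). PTGES3, the co-chaperone p23, measured 313 to 380.1 FPKM in LY19Y646F and 294 to 330.4 FPKM in LY19WT (change 0.14, 95% interval -0.12 to 0.39).

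**Figure D4:**
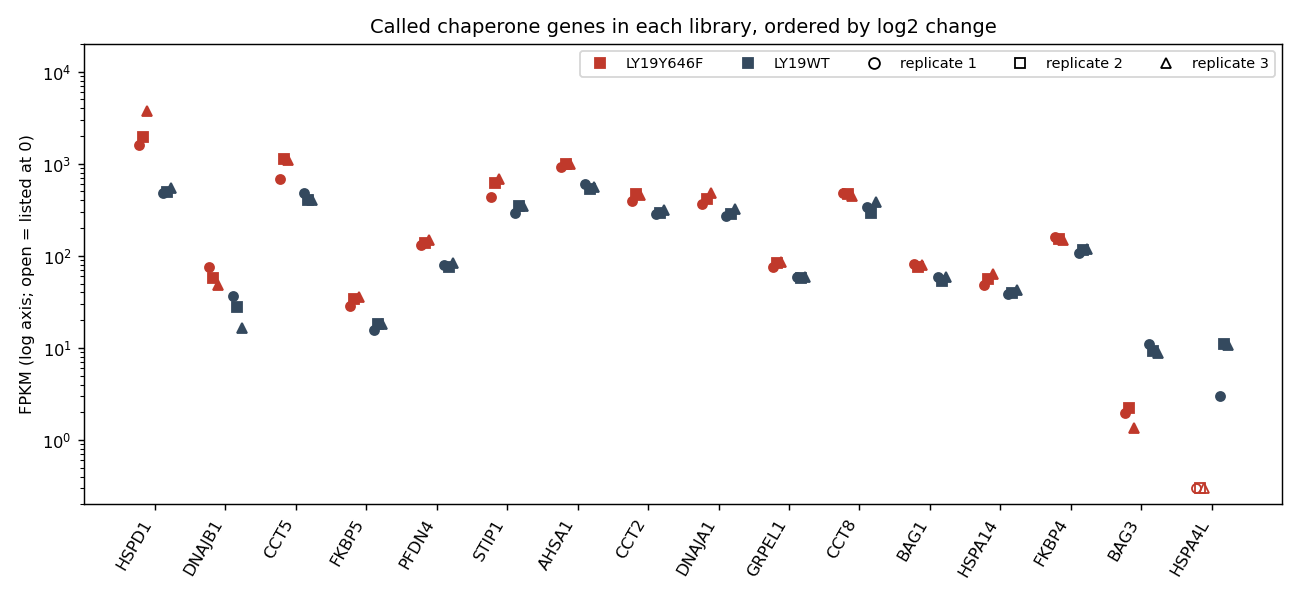
FPKM on a log axis of the 16 called chaperone genes in each library, LY19Y646F left of LY19WT, ordered by log2 change. The lines do not overlap in any of the 16; HSPA4L is listed at 0 (open symbols) in all LY19Y646F libraries.

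Of the 7 tested HSP70 genes, 1 was called higher and 1 lower, where 16.7% and 16.5% of all tested genes were. HSPA8, the constitutive cytosolic HSP70, was the most abundant tested member of its family, at 1488, 1910 and 3867 FPKM in LY19Y646F (mean 2422 ± 1269, SD) and 1324, 1545 and 1619 FPKM in LY19WT (1496 ± 154). The lines overlapped, LY19Y646F replicate 3 stood highest, and the change was 0.58 (95% interval -0.35 to 1.51, limma adjusted p = 0.30). Without LY19Y646F replicate 3 the change of HSPA8 was 0.18, and without LY19Y646F replicate 1 it was 0.87. The authors' deposited table gives HSPA8 means of only 2.18 FPKM in LY19Y646F and 0.259 FPKM in LY19WT, and the reason for this gap between the tables was not tested. HSPA9, the mitochondrial HSP70 mortalin, measured 319, 369 and 967 FPKM in LY19Y646F and 190, 208 and 217 FPKM in LY19WT. It did not overlap but was not called (change 1.24, adjusted p = 0.088), and without LY19Y646F replicate 3 it was (change 0.74, limma adjusted p = 0.014).

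LY19Y646F replicate 3 was at least 1.5 times as high as either other LY19Y646F library in 6 of the 40 tested chaperones (15.0%), HSF2, HSPA8, HSPA9, TCP1, CCT3 and HSPD1, and in 5.54% of all tested genes. HSPA14 (chr10:14880163-14913740), a ribosome-associated HSP70, measured 48.1, 56.3 and 62.98 FPKM in LY19Y646F (mean 55.8 ± 7.47, SD) and 38.4, 39.3 and 42.9 FPKM in LY19WT (40.2 ± 2.41), without overlap. Its change of 0.46 (SE 0.13) was close to the threshold at a limma adjusted p of 0.045. The call was lost without LY19WT replicate 1 (adjusted p = 0.11), 2 (0.12) or 3 (0.075) and without LY19Y646F replicate 2 (0.12) or 3 (0.097).

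HSPA4L, an HSP110-type exchange factor for HSP70 (hg19 chromosome 4, 128702976 to 128761888), was called lower. It was listed at 0 in all 3 LY19Y646F libraries and measured 3.01, 11.01 and 10.8 FPKM in LY19WT, and it passed the filter on low values through LY19WT alone. A gene kept in this way had to differ, and the fitted change depends on the pseudocount (-3.05 with 1 FPKM added and -6.17 with 0.1), so neither is read as support. HSPE1 and TECR were also listed at 0 in these libraries. The authors' deposited table gives HSPA4L means of 0.0576 FPKM in LY19Y646F and 11.7 FPKM in LY19WT. A row naming the RNA RP11-50D9.1 overlaps the gene and held 318 to 385 FPKM in LY19Y646F and 313 to 362 FPKM in LY19WT.

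The related exchange factors HSPA4 and HSPH1 were not called. HSPA4 measured 214, 276 and 109 FPKM in LY19Y646F and 140, 64.1 and 169 FPKM in LY19WT, a wide spread in both lines (change 0.69, limma adjusted p = 0.36). HSPH1, or HSP105, measured 89.1, 166 and 180 FPKM in LY19Y646F and 155, 188 and 213 FPKM in LY19WT (change -0.41, adjusted p = 0.37), and in LY19Y646F replicate 1 an overlapping row without a gene name held 178 FPKM. Without that library the change of HSPH1 was -0.09. HSPA13, a truncated HSP70 of microsomes, measured 10.8, 14.3 and 14.3 FPKM in LY19Y646F and 15.2, 17.8 and 19.2 FPKM in LY19WT, without overlap (change -0.38, adjusted p = 0.13).

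HSPA1A and HSPA1B, the stress-inducible HSP70 pair on chromosome 6, cannot be told apart here. Their longest open reading frames in GENCODE release 29 differ at 4 of 1926 bases, and in 5 of the 6 libraries the chromosome 6 row names both. Rows naming either summed to 109, 12.8 and 10.6 FPKM in LY19Y646F and 8.67, 2.49 and 2.88 FPKM in LY19WT. The row of LY19Y646F replicate 1 also names C6orf48, so its 109 FPKM is not that of HSP70 alone. The inducible pair was at a far lower level than HSPA8 in all 6 libraries.

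Of 5 tested HSP40 genes, 2 were called higher, where 16.7% of all tested genes were. DNAJA1 (chr9:33025209-33051815), a partner of HSPA8, measured 361, 413 and 479 FPKM in LY19Y646F (mean 418 ± 58.9, SD) and 270.4, 286 and 326 FPKM in LY19WT (294 ± 28.97), without overlap. Its change was 0.50 (SE 0.14, limma adjusted p = 0.041), and the call was lost without LY19WT replicate 1 (adjusted p = 0.11), 2 (0.12) or 3 (0.058) and without LY19Y646F replicate 2 (0.11) or 3 (0.094). DNAJB1 (chr19:14625487-14640582), the classical heat-inducible HSP40, measured 76.3, 57.1 and 48.3 FPKM in LY19Y646F (mean 60.6 ± 14.3, SD) and 37.01, 27.9 and 16.3 FPKM in LY19WT (27.1 ± 10.4), without overlap. Its change was 1.18 (SE 0.34, adjusted p = 0.049), which was lost without LY19WT replicate 2 (adjusted p = 0.12) or 3 (0.080) and without LY19Y646F replicate 1 (0.12), 2 (0.12) or 3 (0.082).

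At the DNAJB1 locus the overlapping row naming TECR, a reductase of very long chain fatty acid synthesis, stood at 0 across the LY19Y646F libraries and held 27.5, 32.3 and 30.8 FPKM in LY19WT. Rows naming DNAJB1 or TECR summed to 76.3, 57.1 and 48.3 FPKM in LY19Y646F and 64.5, 60.2 and 47.05 FPKM in LY19WT, which overlap. With HSPD1 and DNAJB1 set aside for this reason, 12 of the 14 chaperones called higher remained. Over all tested genes 16.7% were called higher, but loci of this kind were not set aside there, so the count of 12 has no like background.

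DNAJA2 and the mitochondrial DNAJA3 were not called, nor was DNAJC7, which binds both HSP70 and HSP90, with changes of 0.23, 0.45 and 0.44 and limma adjusted p of 0.17, 0.42 and 0.15. Without LY19Y646F replicate 1 the change of DNAJC7 was 0.61 (limma adjusted p = 0.046). A row naming CNP overlaps DNAJC7 and held 34.8, 0 and 0 FPKM in LY19Y646F and 38.8, 27.6 and 26.5 FPKM in LY19WT. An overlapping row naming ACLY held 175 FPKM in LY19WT replicate 3. The part of these rows in the change of DNAJC7 was not tested. DNAJA2 measured 48.4 to 55.2 FPKM in LY19Y646F and 40.1 to 48.1 FPKM in LY19WT, without overlap, while DNAJA3 (34.3 to 76.3 FPKM in LY19Y646F and 29.4 to 52.7 FPKM in LY19WT) and DNAJC7 (118 to 167 FPKM in LY19Y646F and 90.4 to 119.96 FPKM in LY19WT) overlapped. DNAJB6, a suppressor of protein aggregation, shared its row with UBE3C in LY19WT replicate 1. It measured 81.2, 73.2 and 79.6 FPKM in LY19Y646F and 46.8, 40.2 and 40.4 FPKM in LY19WT, without overlap. Rows naming DNAJC9, a histone chaperone, also named MRPS16 in all libraries and held 82.9 to 159 FPKM in LY19Y646F and 77.8 to 105 FPKM in LY19WT. The row naming DNAJB4 and GIPC2 was at 0 except in LY19WT replicate 1, at 3.87 FPKM.

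All 8 subunits of CCT, the cytosolic ring that folds actin and tubulin, had higher means in LY19Y646F. Of the 7 tested, 3 were called higher, where 16.7% of all tested genes were. CCT2 (chr12:69979114-69995350) measured 397, 466 and 463 FPKM in LY19Y646F (mean 442 ± 39.0, SD) and 282, 289 and 317 FPKM in LY19WT (296 ± 18.3), a change of 0.58 (SE 0.098, limma adjusted p = 0.0083). CCT5 (chr5:10248437-10266524) measured 691, 1136 and 1098 FPKM in LY19Y646F (mean 975 ± 247, SD) and 486, 403 and 408 FPKM in LY19WT (432 ± 46.7), a change of 1.14 (SE 0.22, adjusted p = 0.013). CCT8 (chr21:30428126-30446118) measured 479, 469 and 450.4 FPKM in LY19Y646F (mean 466 ± 14.4, SD) and 338, 288 and 387 FPKM in LY19WT (338 ± 49.6), a change of 0.47 (SE 0.12, adjusted p = 0.036). In all 3 the lines did not overlap, and LY19Y646F replicate 1 was the lowest of its line for CCT2 and CCT5.

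By limma, the call of CCT5 was lost without LY19WT replicate 2 (adjusted p = 0.057) or 3 (0.056) and without LY19Y646F replicate 3 (0.051). That of CCT8 was lost without LY19WT replicate 1 (0.087) or 2 (0.070) and without LY19Y646F replicate 1 (0.079), 2 (0.11) or 3 (0.085). CCT7, the subunit with the highest mean, measured 808, 1143 and 1062 FPKM in LY19Y646F (mean 1004 ± 175, SD) and 721, 738 and 767 FPKM in LY19WT (742 ± 23.5). It did not overlap and was not called (change 0.42, adjusted p = 0.080), but was without LY19Y646F replicate 1 (change 0.57, adjusted p = 0.0056).

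Of the remaining subunits, TCP1 and CCT4 did not overlap between the lines but were not called (changes of 0.53 and 0.18, limma adjusted p of 0.19 and 0.11). TCP1 measured 639.6 to 1148 FPKM in LY19Y646F and 461 to 629 FPKM in LY19WT, and CCT4 measured 339 to 356 FPKM in LY19Y646F and 293 to 313 FPKM in LY19WT. CCT3 overlapped, at 486 to 916 FPKM in LY19Y646F and 357 to 769 FPKM in LY19WT (change 0.25, adjusted p = 0.66), and its change was -0.01 without LY19WT replicate 2 and -0.05 without LY19Y646F replicate 3. CCT6A, in a row shared with SUMF2, measured 464, 527 and 520.4 FPKM in LY19Y646F and 322, 332 and 345 FPKM in LY19WT. Within a library the highest subunit had 2.39 to 3.33 times the FPKM of the lowest in LY19Y646F and 2.45 to 2.73 times in LY19WT; the assembled ring holds all subunits in equal number. CCT4 was the lowest subunit in all 3 LY19Y646F libraries.

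**Figure D5:**
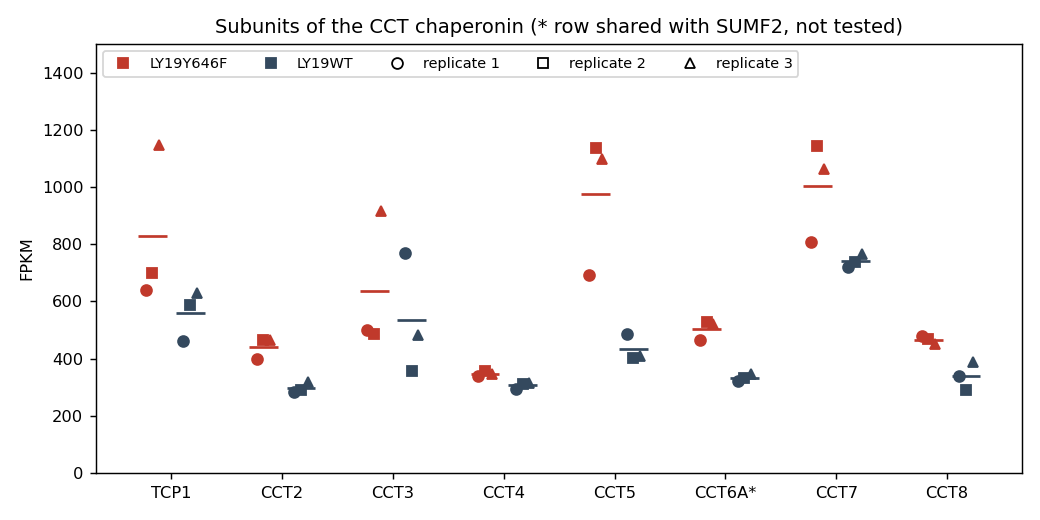
FPKM of the 8 CCT subunits in each library, LY19Y646F left of LY19WT, with lines at the means of 3 libraries. The LY19Y646F libraries lie above all LY19WT libraries for every subunit except CCT3.

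Prefoldin hands unfolded actin and tubulin to CCT. Its subunit PFDN4 (chr20:52824386-52844591) was called higher, at 130, 139 and 147.0 FPKM in LY19Y646F (mean 138 ± 8.66, SD) and 78.6, 76.4 and 84.0 FPKM in LY19WT (79.7 ± 3.89), without overlap (change 0.79, SE 0.088, limma adjusted p = 0.0018). PFDN1 measured 44.0, 96.4 and 88.3 FPKM in LY19Y646F and 60.5, 84.0 and 72.3 FPKM in LY19WT, with a change of 0.01 (95% interval -0.83 to 0.85). PFDN2, which shared its row with DEDD in 2 LY19WT libraries, measured 149, 189 and 146 FPKM in LY19Y646F and 188, 200.1 and 235 FPKM in LY19WT.

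Of the 3 tested BAG genes, whose proteins are exchange factors of HSP70, 1 was called higher and 1 lower. The shares over all tested genes were 16.7% and 16.5%. BAG3, which is heat-inducible and routes clients to selective autophagy, was called lower (hg19 chromosome 10, 121410882 to 121437348). It measured 1.99, 2.23 and 1.37 FPKM in LY19Y646F (mean 1.86 ± 0.445, SD) and 11.1, 9.26 and 8.73 FPKM in LY19WT (9.69 ± 1.24), so the LY19WT mean was 5.21 times that of LY19Y646F. The change was -1.91 (SE 0.18, limma adjusted p = 0.00090), and the authors' deposited table gives 1.69 FPKM in LY19Y646F and 11.1 FPKM in LY19WT. BAG1 (chr9:33247818-33264761), which couples HSP70 to the proteasome, was called higher at 81.6, 75.01 and 79.1 FPKM in LY19Y646F (mean 78.6 ± 3.34, SD) against 59.3, 53.2 and 58.2 FPKM in LY19WT (56.9 ± 3.25), a change of 0.46 (SE 0.087, limma adjusted p = 0.012).

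BAG5 measured 36.7 to 50.9 FPKM in LY19Y646F and 31.3 to 47.9 FPKM in LY19WT, and was not called. Rows naming BAG2 held 109 to 160.3 FPKM in LY19Y646F and 117 to 184 FPKM in LY19WT, and in 4 libraries they also named ZNF451. BAG4 shared its row with DDHD2 in LY19WT replicate 3, where the row held 65.6 FPKM. In the other libraries BAG4 measured 9.25 to 16.3 FPKM in LY19Y646F and 0 and 16.99 FPKM in LY19WT.

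In a further list of 66 chaperones and co-chaperones drawn from general knowledge, 43 were tested. Of these, 12 were called higher (27.9%) and 1 lower (2.33%), against 16.7% and 16.5% of all tested genes. The median change of the list was 0.35. TOMM34, a co-chaperone of mitochondrial import, averaged 94.6 ± 10.9 FPKM in LY19Y646F and 24.5 ± 1.36 FPKM in LY19WT (SD, n = 3 each). CHORDC1, a partner of HSP90, averaged 170 ± 21.7 FPKM in LY19Y646F and 54.96 ± 10.2 FPKM in LY19WT, and PPID, the HSP90 cyclophilin, averaged 139 ± 25.8 FPKM in LY19Y646F and 46.9 ± 6.17 FPKM in LY19WT. Of the HSP40 genes in the list, DNAJB2, which guards against aggregation in neurons, averaged 15.3 ± 2.99 FPKM in LY19Y646F and 1.79 ± 0.347 FPKM in LY19WT. DNAJC15, of the mitochondrial inner membrane, averaged 9.17 ± 1.39 FPKM in LY19Y646F and 2.12 ± 0.0644 FPKM in LY19WT. DNAJC6, an auxilin that uncoats clathrin vesicles, averaged 7.27 ± 1.94 FPKM in LY19Y646F and 1.43 ± 0.236 FPKM in LY19WT. Their limma adjusted p-values lay between 0.00020 for TOMM34 and 0.0030 for DNAJC6, and the lines did not overlap in any of the 6. TOMM34 is overlapped in LY19Y646F by rows merging PABPC1L with YWHAB or STK4 (54.1 to 241 FPKM) and in LY19WT by rows naming PABPC1L alone (9.11 to 10.99 FPKM). These rows are not alike and were not compared, and their part in its change was not tested. The gene called lower was HSBP1, whose protein binds HSF1, at a mean of 56.7 FPKM in LY19Y646F and 90.3 FPKM in LY19WT (change -0.67, limma adjusted p = 0.017).

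Of the 52 chaperones, 36 are in the authors' deposited table of mean FPKM per line. On the log2(FPKM + 1) scale, all 31 of these that were tested here had the same direction there, including the 13 that were called. HSPA8 is counted among the 31, but its deposited means (2.18 FPKM in LY19Y646F and 0.259 FPKM in LY19WT) are far below its library values. The direction of HSPA8 there is therefore not read as agreement. Levels differed for other genes too. The deposited LY19WT mean of HSPA9 is 667 FPKM, where its LY19WT libraries held 190, 208 and 217 FPKM. The deposited LY19WT mean of HSPH1 (385 FPKM) and LY19Y646F mean of HSPA4 (374 FPKM) lie above every library of that line. A shared direction is thus not agreement in level, and the reason for these gaps was not tested. That table was made from the same libraries and is not an independent measurement.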

How the data were processed

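Polyadenylated RNA of 3 LY19Y646F and 3 LY19WT libraries was sequenced from a stranded kit, per the labels' protocols. STAR 2.5.3a, Cufflinks 2.2.1 and Cuffdiff 2.2.1 are named with build hg19, per the submitters' processing notes. The deposited tables, 1 per library, hold FPKM per locus, and their rows differ between libraries, as loci assembled in each library would; between 3189 and 3443 rows per table name several genes. FPKM are not counts, and the depth behind each value is unknown; precision rests on 3 libraries per line. The labels give 3 biological replicates per line but do not state whether these are separate cultures. The p-values therefore reflect only how these libraries vary, which may be technical in part. The authors' deposited table of Cuffdiff means also holds a log2 fold change, which was not used, since changes were recomputed from its means on the log2(FPKM + 1) scale.

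Rows were joined by symbol. A row counted for a gene where it named no other protein-coding gene (types from GENCODE release 29), and values of several rows of a gene were added. This set aside 12 of the 52 chaperones, which are given by the rows that name them without a test; TRAP1, HSPA8, TCP1, CCT5 and CDC37 share rows with non-coding names only. No chaperone was removed by the filter, which kept genes with a mean over the 6 libraries of 0.5 FPKM or more. Changes are LY19Y646F minus LY19WT in log2(FPKM + 1), which understates the fold of low genes, from limma 3.58.1 in R 4.3.3 (eBayes with a trend, two-sided, Benjamini-Hochberg adjustment over all 10714 tested genes, threshold 0.05). The fit was tested on simulated data. Loci are on hg19, counted from 1 and taken as the widest over the libraries, and promoters on GRCh38.p14. Python 3.11.15 with pandas 2.3.3 and matplotlib 3.10.9 was used for joins and plots. Full values were given by rule for every called gene, the highest tested gene of each class, HSF1 and HSF2, and up to 6 called genes of the further list, with other chaperones added to account for all 52. The members and lists were chosen with earlier results of these data known. One B cell marker is not reported here.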

Additional observations from a re-analysis of the deposited data

How the results depend on the processing

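None of the 22 chaperones named by rule changed sign under any of 17 alternatives, the scalings included, and 9 of the 16 called ones kept their call in every alternative that gave a value: HSPD1, BAG3, AHSA1, FKBP5, PFDN4, CCT2, BAG1, GRPEL1 and HSPA4L. The call of HSPA4L says nothing about stability, since the gene was kept through LY19WT alone. No alternative addressed the overlapping HSPE1 row, listed at 0 in LY19Y646F, so the kept call of HSPD1 does not bear on that overlap. FKBP4 lost its call under quantile scaling (limma adjusted p = 0.055), and CCT5, STIP1, CCT8, DNAJA1, DNAJB1 and HSPA14 under several alternatives, with adjusted p of up to 0.15. Library weights raised the calls to 5772 of all tested genes against 3566, to 27 chaperones against 16 (22 higher and 5 lower, against 14 and 2) and to 27 of the further list against 13; 53.9% of all tested genes were called there. Quantile scaling left 10 chaperones called (25%, against 32.2% of all tested genes), 8 of them higher (20%, against 17.5%), and testing without a filter left 9 higher (22.5%, against 9.26%). Leaving out each library in turn gave 2788 to 4069 calls over all genes (26.0% to 38.0%) and 10 to 17 chaperones (25% to 42.5%). The chaperone share was 25% against 26.1% without LY19WT replicate 2, and 27.5% against 27.4% without LY19Y646F replicate 3. Of the chaperones, 8 to 14 were higher (20% to 35%, against 12.4% to 20.2%) and 2 to 3 lower (5% to 7.5%, against 13.5% to 17.8%). In the further list 10 to 19 were called (23.3% to 44.2%). Without replicate 1 of both lines, an alternative added after seeing the data, 5 chaperones were called lower (12.5%, against 21.8% of all tested genes), the additional 3 being LONP1, CLPP and HSPA13, and 21 of the further list were called (48.8%, against 42.9%). Scaling to a common median moved the median change of all genes to 0.09, against -0.03, and that of the chaperones to 0.61, against 0.46. Of uncalled genes, PFDN1 also changed sign when single libraries were left out (-0.19 to 0.36). The causes of these shifts were not tested.

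With the replicate number as a block, 20 chaperones were called (50%), and 3884 of all tested genes (36.3%). Of these chaperones 15 were higher (37.5%, against 17.9% of all tested genes) and 5 lower (12.5%, against 18.3%). LONP1, CLPP and HSPA13 were among those lower, and CLPB, CDC37 and DNAJC7 among those higher. The deviations of same-numbered libraries from their line means correlated at 0.26, 0.0999 and 0.13 for replicates 1, 2 and 3, and each library correlated best with its own number, a hint from the data and not from the design; by the rule used, which asks for more than 0.1 in every pair, the numbers do not pair the libraries.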
